A study of Homo sapiens with 6 samples.

Results

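The mRNA levels of the core subunits of cohesin and condensin were examined in HCCLM3-SR cells after knockdown of the circular RNA cDCBLD2. The members were the genes of the deposited expression table whose symbol was SMC1A, SMC3, RAD21, STAG1 or STAG2 for cohesin, and SMC2, SMC4, NCAPD2, NCAPG or NCAPH for condensin I. All 10 were found among the 38637 genes of the table, and all 10 were among the 13980 genes tested, which had a mean of at least 1 TPM over the 6 libraries. In all 10 the mean level was lower after cDCBLD2 knockdown, from 47.5% of the control mean for SMC3 to 75.8% for SMC1A. Whether these differences passed the test depended on whether libraries with the same replicate number were treated as pairs: 0 members passed without pairing (0.629% of all genes tested were called lower) and 10 passed with it (25.0% of all genes). In RNA from whole cultures, fewer cells that transcribe these genes and less of their RNA per cell cannot be told apart.

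Cohesin and condensin are ring-shaped complexes built around a pair of SMC proteins, long coiled-coil ATPases that close around DNA. In cohesin the SMC1A and SMC3 pair is bridged by the kleisin RAD21, to which either STAG1 or STAG2 binds, and the ring holds sister chromatids together from replication to anaphase and extrudes chromatin loops in interphase. In condensin I the SMC2 and SMC4 pair is bridged by the kleisin NCAPH, with the HEAT-repeat subunits NCAPD2 and NCAPG, and the complex compacts chromosomes in mitosis together with topoisomerase II. Many of these genes are transcribed most strongly in proliferating cells, and STAG2 is often mutated in human tumours.

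HCCLM3-SR is a line made resistant to the kinase inhibitor sorafenib by long exposure of the hepatocellular carcinoma line HCCLM3. PolyA-Seq measured 3 libraries of cells transfected with siRNA against cDCBLD2 and 3 libraries of cells transfected with control siRNA, both for 3 days and both under 5 µM sorafenib. The groups therefore share the cell line, the drug and the transfection, and differ in the siRNA, so the comparison asks which mRNAs differ when the circular RNA is targeted in 1 resistant line and under the drug. The labels do not say whether the libraries came from separate cultures, so p-values measure the spread between these libraries, which may be technical. TPM is a level per unit of transcript length that sums to 1000000 in each library. At least 17231382 to 22670236 reads per library were recovered from the ratios of these values, and a member had from 249 reads (SMC2, knockdown replicate 2) to 29040 reads (RAD21, control replicate 1) behind its value. The recovered reads are lower bounds.

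A few genes outside the list describe the cells. DCBLD2, the host gene of the circular RNA, had a level of 58.1, 25.9 and 31.6 TPM in the knockdown libraries 1, 2 and 3, against 71.5, 48.5 and 50.7 TPM in the control libraries. Reads of the circle and of the linear mRNA are not separated in these values, so they do not check the knockdown itself. Of the 5 epithelial markers, KRT8 (2999 to 4413 TPM) and KRT18 (1800.0 to 2555 TPM) were abundant in all 6 libraries and CDH1 was at 37.7 to 62.0 TPM, whereas KRT19 (0.806 to 1.91 TPM) and EPCAM (0.0686 to 0.323 TPM) were low. Their sum was 5863 to 7008 TPM after knockdown and 4857 to 5659 TPM in control cells, without overlap. Of the 9 hepatocyte and carcinoma markers, 3 had a mean of at least 1 TPM. These were APOB (0.902 to 4.26 TPM), SERPINA1 (1.3 to 3.0 TPM) and AFP (0.926 to 2.08 TPM). ALB was between 0.189 and 1.58 TPM. All 9 summed to 7.71 to 9.15 TPM after knockdown and 7.40 to 8.63 TPM in control cells. Liver genes outside this list were not all low, since APOH had a mean of 69.3 TPM and AHSG one of 1.6 TPM. The T-cell marker CD3E was listed at 0 in every library, and the 4 leukocyte markers summed to 1.03 to 1.17 TPM after knockdown and to 1.38 to 1.96 TPM in control cells. The 4 fibroblast markers summed to 5.61 to 15.2 TPM after knockdown and to 1.91 to 4.28 TPM in control cells. The 3 endothelial markers summed to 4.50 to 5.19 TPM and to 3.70 to 5.72 TPM, nearly all of it PECAM1. The part of these genes in the values of the subunits was not tested.

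The study places cDCBLD2 upstream of miR-345-5p, which it describes as pairing with a coding sequence, so the coding sequences of the members were searched for the letters GAGTCAG, the match to the seed of this miRNA (bases 2 to 8). The mature miRNA is encoded at chr14:100307876-100307897 on the plus strand (RefSeq, GRCh38.p14), and its seed is in capitals. The windows under it are 29 bases of the sense strand of the coding sequence in GENCODE release 29 transcripts, with the match in capitals. They are shown for the members outside RAD21 that hold a match. In SMC1A, 2 matches overlap by 1 base (transcript positions 1199 to 1205 and 1205 to 1211), and the window holds both, the first in capitals. The positions, counted from the first base of the transcript, are 2454 to 2482 of ENST00000315579.9 for NCAPD2, 1188 to 1216 of ENST00000322213.8 for SMC1A, 2889 to 2917 of ENST00000286398.11 for SMC2, 3656 to 3684 of ENST00000361804.4 for SMC3 and 325 to 353 of ENST00000371160.5 for STAG2.
hsa-miR-345-5p: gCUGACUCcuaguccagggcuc
SMC1A: atggaagaagaGAGTCAGagtcagggcag
SMC3: ctgaactgcttGAGTCAGctgacaaattc
STAG2: atctactacagGAGTCAGaaacacatttt
SMC2: ctaaaaataagGAGTCAGtaaataaagct
NCAPD2: tagacccagagGAGTCAGaggagaccagg

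In all, 6 of the 10 members hold a match in the coding sequence, RAD21 with 2 among them, and 0 of the 10 hold one in the 3′ UTR. STAG1, SMC4, NCAPG and NCAPH hold none in either. Among the 11772 coding genes tested, 12.7% hold a match in the coding sequence and 9.85% in the 3′ UTR. The members' coding sequences are long, from 1893 to 4203 bases against a median of 1362 bases. Of the 3008 tested genes in this range of length, 19.5% hold a match. All members except RAD21 (1893 bases) and NCAPH (2223 bases) have at least 3045 bases, so this share is not matched to the members' lengths. The log2 fold changes of the 6 members with a match lay between -1.11 (SMC3) and -0.38 (SMC1A), and those of the 4 without one between -0.89 (NCAPG) and -0.42 (STAG1). The ranges overlap, and a match of letters is no evidence of binding.

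Since the members include genes of mitosis, the promoter windows of RefSeq (250 bases before to 50 bases after each start, GRCh38.p14) were searched on both strands for TTTGAA, the cell cycle homology region, for CCAAT, the letters of the CCAAT box, and for GCGGGAA, an E2F-type motif. Windows were given for 9 of the 10 members. Of these, SMC3, SMC2, SMC4, NCAPD2 and NCAPG hold TTTGAA or its reverse complement TTCAAA, as do 15.2% of all 35116 windows, and 18.2% of the 27305 genes in at least 1 of their windows. The first base of the match lies 151, 3, 75, 145 and 35 bases before the start in the order just given. SMC1A, STAG1, STAG2 and NCAPH hold none in any of their windows. The stretches below show these 5 matches in capitals, in the direction of transcription, which is the plus strand for all 5. They are chr10:110567518-110567573 for SMC3, chr9:104094280-104094311 for SMC2, chr3:160399549-160399604 for SMC4, chr12:6493931-6493986 for NCAPD2 and chr4:17810918-17810973 for NCAPG. In NCAPD2 the capitals near the 5′ end are a CCAAT box on the other strand, and in NCAPG the capitals before TTTGAA are GCGGGAA.
SMC3: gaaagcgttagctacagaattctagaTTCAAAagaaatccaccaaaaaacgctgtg
SMC2: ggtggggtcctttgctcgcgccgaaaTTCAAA
SMC4: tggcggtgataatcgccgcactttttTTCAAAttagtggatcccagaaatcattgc
NCAPD2: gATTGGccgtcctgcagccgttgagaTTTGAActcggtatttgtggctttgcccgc
NCAPG: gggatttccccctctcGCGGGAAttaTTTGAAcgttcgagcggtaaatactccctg

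CCAAT was found in 4 of the 9 members (STAG1, STAG2, NCAPD2 and NCAPH), against 39.7% of genes and 34.6% of windows, with 4 copies in the NCAPD2 window. GCGGGAA was found in 3 of the 9 (SMC1A, STAG1 and NCAPG), against 7.82% of genes and 6.55% of windows, with 2 copies in the NCAPG window. Of the 5 members with TTTGAA, the log2 fold changes ran from -1.11 (SMC3) to -0.51 (NCAPD2), and of the 4 with a window and no TTTGAA from -0.76 (STAG2) to -0.38 (SMC1A). These values are given as a description, since the letters were searched in a list of genes already chosen.

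The 10 mRNAs spanned a wide range of levels. In control cells RAD21 was the highest, at 963 ± 187 TPM (SD, n = 3), followed by NCAPD2 at 244 ± 25.0 TPM. These 2 stood apart from each other and from all others in every library. Then came SMC4 (42.5 TPM), STAG2 (39.7 TPM), SMC1A (34.1 TPM), SMC3 (27.3 TPM), NCAPG (25.3 TPM), NCAPH (22.0 TPM), SMC2 (12.5 TPM) and STAG1 (9.63 TPM). The control libraries of each of these overlapped with those of its neighbour, although SMC1A was above SMC3, and NCAPH above SMC2, in each of the 6 libraries. The subunits of 1 complex were thus far from equal in mRNA level, with RAD21 above its SMC partners and NCAPD2 above SMC2 and SMC4 in all 6 libraries.

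**Figure D1:**
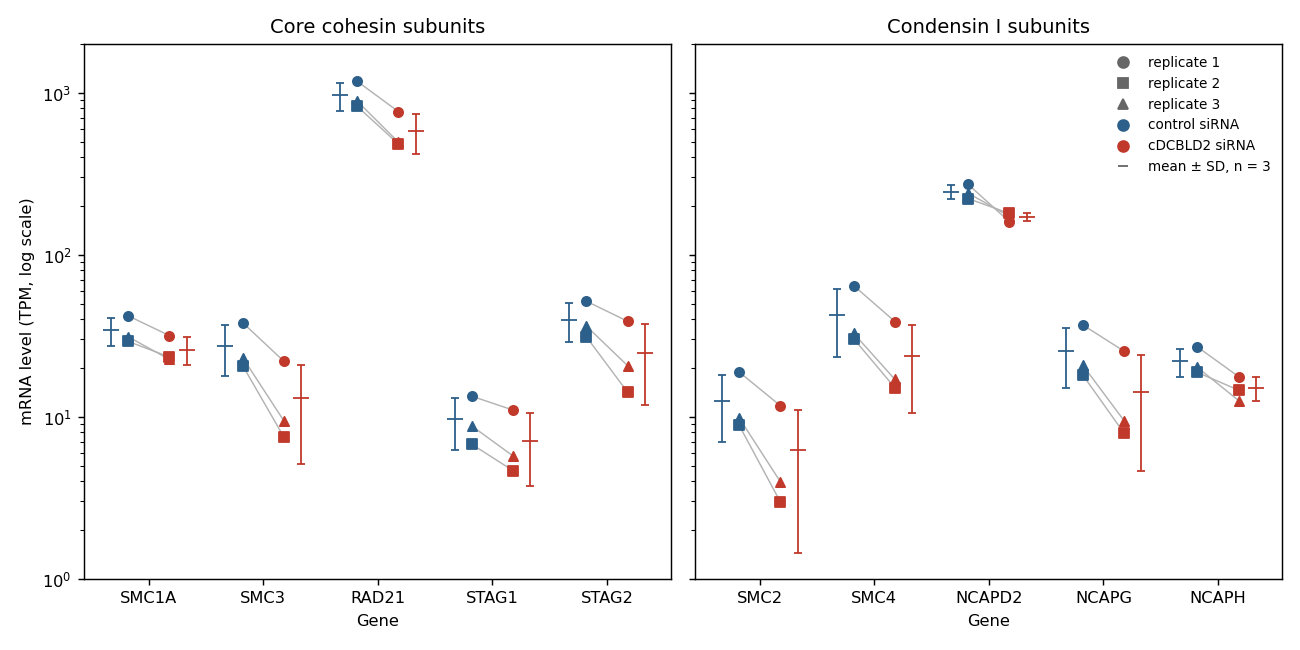
Level of each subunit in each library, in TPM on a log axis, with control siRNA in blue and cDCBLD2 siRNA in red. Lines join libraries with the same replicate number and the bars give mean ± SD (n = 3). All 30 lines go down from control to knockdown, and the replicate 1 library is the highest of its group in every case except NCAPD2 after knockdown.

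Of the SMC subunits of cohesin, SMC3 had the larger difference. Its level was 22.0, 7.49 and 9.43 TPM in the knockdown libraries 1, 2 and 3, against 38.1, 20.7 and 23.2 TPM in the control libraries, an order of libraries kept for all genes that follow. Knockdown replicate 1 lay between the control values, so the groups overlapped, although each knockdown library lay below the control library of its number. The log2 fold change, here and throughout the difference of group means of log2(TPM + 1), was -1.11 (standard error, SE, of 0.41, adjusted p = 0.153 in limma). SMC1A, its partner in the ring, was at 31.7, 23.4 and 22.6 TPM after knockdown and at 42.0, 29.2 and 31.2 TPM in control cells. Again only knockdown replicate 1 reached into the control range. Its log2 fold change was -0.38 (SE 0.18, adjusted p = 0.231 in limma), the least negative of the 10. SMC3 lies at chr10:110567691-110604636 on the plus strand and SMC1A at chrX:53374149-53422728 on the minus strand of GRCh38.

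The kleisin RAD21, which separase cleaves to release sister chromatids, was at 765, 482 and 495 TPM after knockdown and at 1176, 825 and 888 TPM in control cells. All 3 knockdown libraries lay below all 3 control libraries. The mean was 581 ± 159 TPM (SD, n = 3) after knockdown, or 60.3% of the control mean, and the log2 fold change was -0.74 (SE 0.22, adjusted p = 0.104 in limma). By the two-sided exact permutation test, p was 0.1, the smallest that 3 against 3 libraries allow.

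STAG2 and STAG1 are alternative subunits that bind the kleisin, and a cohesin ring carries 1 of them. STAG2 was at 38.9, 14.2 and 20.7 TPM after knockdown and at 51.7, 31.2 and 36.3 TPM in control cells, a log2 fold change of -0.76 (SE 0.37, adjusted p = 0.239 in limma). STAG1 was at 11.0, 4.65 and 5.73 TPM after knockdown and at 13.4, 6.77 and 8.78 TPM in control cells, a log2 fold change of -0.42 (SE 0.34, adjusted p = 0.459 in limma). In both genes the groups overlapped through knockdown replicate 1. As a share of the summed TPM of the 2 genes, STAG2 made up 78.0%, 75.3% and 78.3% after knockdown and 79.5%, 82.2% and 80.5% in control cells. The share was thus lower by 3.54 percentage points on average and did not overlap between the groups, and STAG2 remained the major form in every library. No test was run on this share, and it was taken from TPM without correction for GC content. The transcript of STAG2 has 36.6% GC and that of STAG1 40.2%. STAG2 lies at chrX:123960212-124422664 on the plus strand and STAG1 at chr3:136336233-136752403 on the minus strand.

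Both SMC subunits of condensin had large differences. SMC2 was at 11.7, 2.98 and 3.97 TPM after knockdown and at 18.9, 8.86 and 9.84 TPM in control cells, a log2 fold change of -1.03 (SE 0.48, adjusted p = 0.228 in limma). SMC4 was at 38.7, 15.1 and 17.0 TPM after knockdown and at 64.5, 30.3 and 32.7 TPM in control cells, a log2 fold change of -0.86 (SE 0.42, adjusted p = 0.244 in limma). In each gene replicate 1 was the highest library of both groups by a wide margin, and replicates 2 and 3 of the knockdown lay well below every control library. SMC2 lies at chr9:104094260-104141417 and SMC4 at chr3:160399274-160434962, both on the plus strand.

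Among the subunits that belong to condensin I and not to condensin II, NCAPD2 came closest to the threshold. It was at 159.7, 179.8 and 172.8 TPM after knockdown and at 271.5, 222.1 and 239.7 TPM in control cells, without overlap. Its log2 fold change was -0.51 (SE 0.092, adjusted p = 0.0568 in limma). NCAPD2 was also the member whose libraries followed their numbers least, since replicate 1 was the highest of the control libraries and the lowest of the knockdown libraries. NCAPH, the kleisin, was at 17.7, 14.6 and 12.6 TPM after knockdown and at 27.0, 18.8 and 20.2 TPM in control cells, again without overlap, a log2 fold change of -0.52 (SE 0.17, adjusted p = 0.132 in limma). NCAPG, the other HEAT-repeat subunit, was at 25.4, 7.93 and 9.47 TPM after knockdown and at 36.9, 18.1 and 20.8 TPM in control cells, a log2 fold change of -0.89 (SE 0.46, adjusted p = 0.261 in limma). The NCAPG groups overlapped through knockdown replicate 1. NCAPD2 lies at chr12:6493356-6531955, NCAPG at chr4:17810902-17844862 and NCAPH at chr2:96335787-96373845, all on the plus strand.

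Counted together, every knockdown library was below every control library in 3 of the 10 members (RAD21, NCAPD2 and NCAPH), against 22.3% of all genes tested. For these 3 the two-sided exact permutation test gave p = 0.1, and for the other 7 from 0.2 to 0.5. At an adjusted p under 0.05, limma without a block called 0 members lower, against 0.629% of all genes. At an unadjusted p under 0.05 it gave 4 (SMC3, RAD21, NCAPD2 and NCAPH), against 19.4% of all genes. Limma-voom on the recovered reads, chosen after seeing the data, called 0 at the adjusted p, against 1.72% of the genes in that fit. The median log2 fold change was -0.74 for the 5 cohesin subunits and -0.86 for the 5 condensin I subunits, beside -0.08 for all genes tested.

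Replicate 1 stood apart from replicates 2 and 3 in both groups, and the members showed this strongly. In knockdown cells 9 of the 10 members were higher in replicate 1 than in the mean of replicates 2 and 3, by a median over all 10 of 1.05 on the log2 scale, from -0.14 for NCAPD2 to 1.51 for SMC2. In control cells all 10 were higher in replicate 1, by a median of 0.66, from 0.23 for NCAPD2 to 1.01 for SMC4. Over all genes tested these medians were 0.08 and 0.04. The trait was not particular to the members. Over the 33 tested regulators and partners described below, the medians were 0.49 and 0.41. Over the 3 genes of the cohesin acetylation cycle among them they were 1.08 and 0.87. A second fit therefore took the replicate number as a block, so that each knockdown library was compared with the control library of its number. Within the pairs, all 30 changes were negative, with a median over the members of -0.60 in pair 1, -0.87 in pair 2 and -0.81 in pair 3, beside -0.08, -0.07 and -0.11 over all genes.

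With the replicate block, limma called all 10 members lower at an adjusted p under 0.05, against 25.0% of all genes tested. The fold changes were those given above, and the standard errors fell to between 0.052 (RAD21) and 0.141 (SMC2). RAD21 and SMC4 had the lowest adjusted p (0.00436 each with limma and the block), followed by SMC3 (0.0054) and SMC2 (0.00763), and STAG1 had the highest (0.021). NCAPD2, with a standard error of 0.089 in place of 0.092, gained least from the block and had an adjusted p of 0.0119. Past a log2 fold change of -1 as well, the block left SMC3 and SMC2, against 0.751% of all genes. Both have GC-poor transcripts, and the share among such genes is given below. Limma-voom with the block also called all 10, against 20.5% of genes. Without replicate 1 the block called 10 members, against 28.0% of all genes. Without replicate 2 it called 9 (all except STAG1), against 7.75%, and without replicate 3 it called 3 (SMC3, RAD21 and SMC4), against 3.19%.

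**Figure D2:**
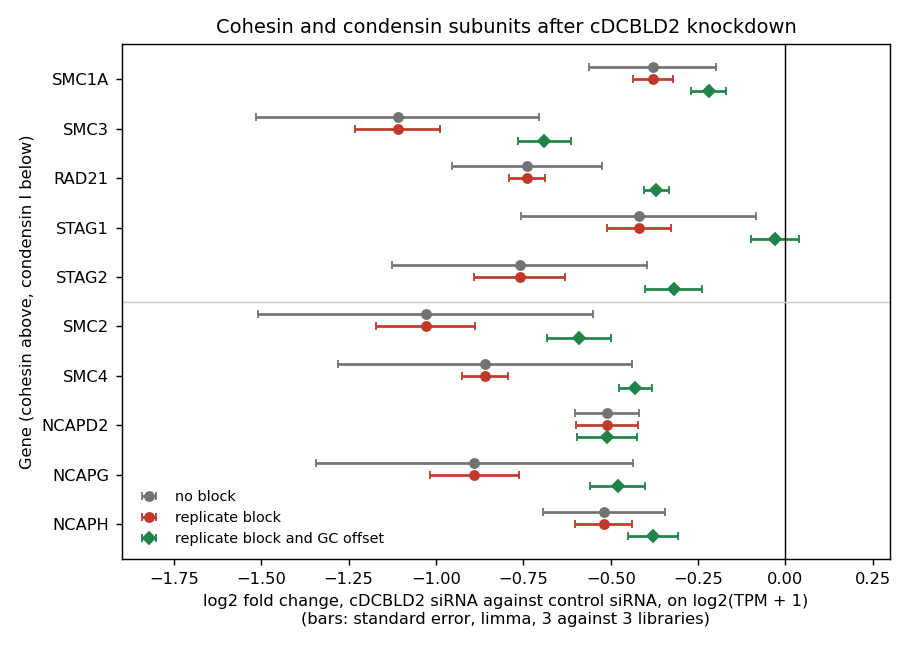
Log2 fold change of each subunit, on log2(TPM + 1), with its standard error from limma without a block (grey), with the replicate block (red), and with the block after the GC trend of each library had been taken out (green). The block narrows the bars of every member except NCAPD2, whose standard error hardly moves, and the GC offset brings STAG1 to -0.03 and leaves NCAPD2 at -0.51.

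The members differ in base composition in a way that runs with these values. Across the genes tested, those with GC-poor transcripts had lower fold changes, with a median of -0.40 in the lowest of 5 equal classes of GC content (29.8% to 41.6%) and of 0.11 in the highest class. Transcripts of 7 members (SMC3, RAD21, STAG1, STAG2, SMC2, SMC4 and NCAPG) fall in the lowest class, with STAG2 the poorest at 36.6% GC, whereas SMC1A (47.1%), NCAPH (47.8%) and NCAPD2 (52.5%) fall in the middle class. The replicate block called 58.4% of the genes of the lowest class lower, and 20.1% of those of the middle class. Past a log2 fold change of -1 as well, it called 2.47% of the lowest class, which holds SMC3 and SMC2. Once the GC trend of each library had been taken out (the GC offset), the block called 9 of the 10 members lower, against 13.5% of the genes with a GC content, and 14.8% of those in the lowest class. With this offset 0 members passed both thresholds.

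Under this GC offset the fold changes shrank for 9 members. SMC3 was then at -0.69 (limma adjusted p = 0.00582 with the block), SMC2 at -0.59 (0.0113), NCAPG at -0.48 (0.0131), SMC4 at -0.43 (0.00595) and RAD21 at -0.37 (0.00515). STAG2 was at -0.32 (0.0395) and SMC1A at -0.22 (0.0288). STAG1 was at -0.03 (0.774) and no longer passed. NCAPD2 kept a log2 fold change of -0.51 (limma adjusted p = 0.0137 with the block) and NCAPH was at -0.38 (0.0181). Only SMC3 and SMC2 then had lower fold changes than NCAPD2, whereas without the offset only SMC1A and STAG1 had higher ones. The median was -0.32 for cohesin and -0.48 for condensin I, beside -0.01 for all genes. Without the block, the GC offset left 0 members past the threshold, against 0.147% of the genes fitted, and 4 at an unadjusted p under 0.05, against 11.4%. Removing the trend with transcript length instead brought SMC1A, which has the longest transcript of the 10 (9784 bases), to -0.05 (limma adjusted p = 0.825 without the block), STAG1 to -0.18 and NCAPD2 to -0.29.

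**Figure D3:**
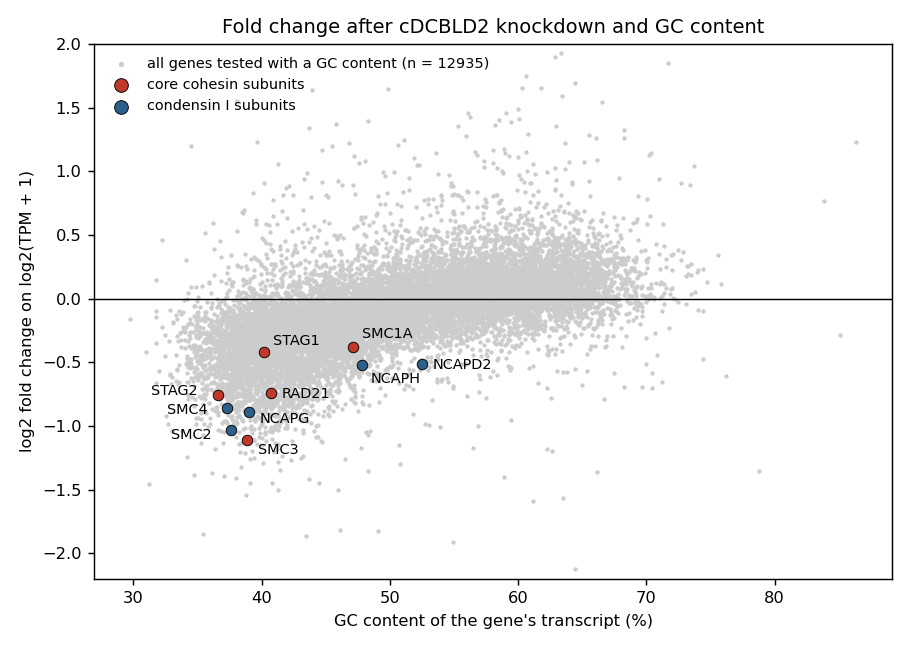
Log2 fold change on log2(TPM + 1) against the GC content of the transcript, in %, for the 12935 genes tested that have one (grey; 6 lie outside the axis range), with the cohesin subunits in red and the condensin I subunits in blue. Grey points sink toward low GC content, where 7 members lie, and all 10 members lie below 0, with NCAPD2 and NCAPH well below the bulk of genes at their GC content. With the GC offset (not drawn), SMC3, SMC2, NCAPG and SMC4 were at percentiles 0.881, 1.65, 3.29 and 4.58 of the fold changes. NCAPD2 was then at 2.76, NCAPH at 5.86 and STAG1 at 46.5.

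Condensin II shares SMC2 and SMC4 with condensin I and has its own NCAPD3, NCAPG2 and NCAPH2. NCAPD3 was at 42.7, 35.3 and 29.2 TPM after knockdown and at 65.6, 48.4 and 51.0 TPM in control cells, with a log2 fold change of -0.61 (adjusted p = 0.0995 in limma, and 0.00653 with the block). NCAPG2 was at 28.2, 19.6 and 19.9 TPM and at 43.1, 30.2 and 31.0 TPM, with a log2 fold change of -0.60 (adjusted p = 0.121 in limma, and 0.00444 with the block). NCAPH2 went the other way, at 42.1, 38.9 and 38.1 TPM after knockdown and at 36.2, 33.6 and 32.8 TPM in control cells. The log2 fold change of NCAPH2 was 0.21 (adjusted p = 0.156 in limma, and 0.0248 with the block, which called 9.94% of all genes higher), and 0.08 with the block and the GC offset (adjusted p = 0.253). In none of these 3 genes did the groups overlap. Of all 13980 genes tested, 22.3% were lower without overlap and 1339 were higher without overlap.

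The kleisins of the 2 condensins therefore stood in different proportions. NCAPH made up 29.6%, 27.4% and 24.9% of the summed TPM of NCAPH and NCAPH2 after knockdown, and 42.7%, 35.9% and 38.1% in control cells, without overlap and with means 11.6 percentage points apart. No test was run on the shares, and they were taken from TPM without the GC offset. The transcript of NCAPH has 47.8% GC and that of NCAPH2 62.1%. With the GC offset their log2 fold changes were -0.38 and 0.08, in place of -0.52 and 0.21. For the other subunits the shares overlapped between the groups. NCAPD2 made up 78.9% to 85.6% of the sum with NCAPD3 after knockdown and 80.5% to 82.4% in control cells, and NCAPG made up 28.8% to 47.5% and 37.5% to 46.1% of the sum with NCAPG2.

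**Figure D4:**
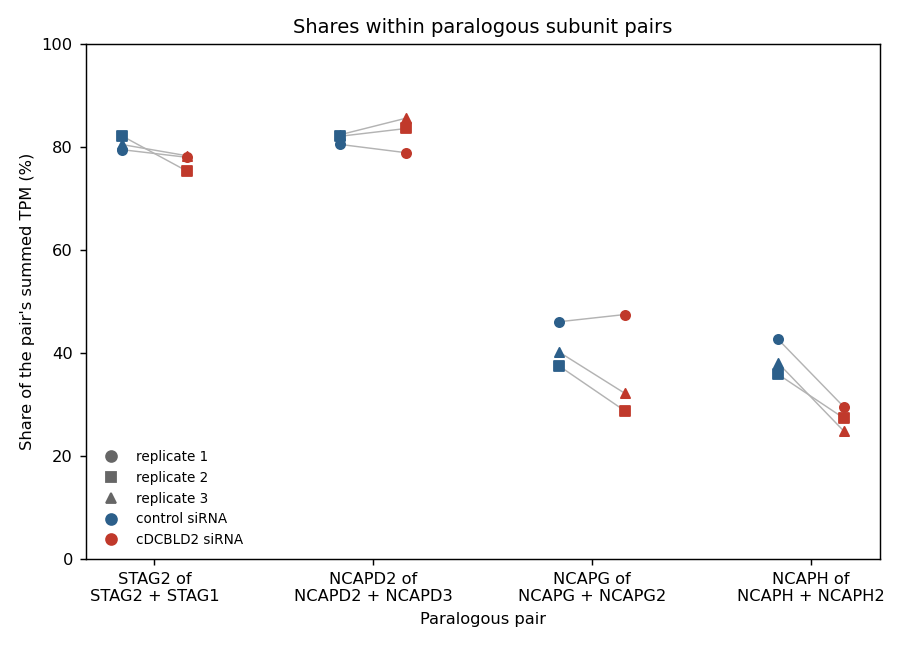
Share of the first gene in the summed TPM of a paralogous pair, in %, per library, with control siRNA in blue, cDCBLD2 siRNA in red and lines joining libraries of the same replicate number. The NCAPH share lies between 24.9% and 29.6% after knockdown and between 35.9% and 42.7% in control cells, the STAG2 share between 75.3% and 78.3% and between 79.5% and 82.2%, and the other 2 pairs overlap.

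Regulators and partners of the complexes were taken as 8 lists of 36 genes, condensin II included. Of these, 33 were tested. The germline paralogs SMC1B, REC8 and RAD21L1 had a mean under 1 TPM, and STAG3, the fourth of them, was at 3.84 to 4.01 TPM after knockdown and at 4.79 to 4.97 TPM in control cells. Without the block limma called 1 of the 33 lower and 0 higher, against 0.629% and 0.250% of all genes. At an unadjusted p under 0.05 there were 15 lower and 1 higher, against 19.4% and 6.78%, and limma-voom also called 1 lower and 0 higher. The 1 was PTTG1, which encodes securin, the inhibitor of separase. It was at 67.1, 69.8 and 58.6 TPM after knockdown and at 115.4, 103.6 and 99.9 TPM in control cells, with a log2 fold change of -0.70 (SE 0.094, adjusted p = 0.0451 in limma). With the block 22 of the 33 were lower, against 25.0% of all genes, and 1, NCAPH2, was higher, against 9.94%. With the block and the GC offset 15 were lower, against 13.5%, and 1 was higher, against 11.8%. That 1 was NSMCE3, a gene named here after its values were seen (log2 fold change 0.55, limma adjusted p = 0.0158).

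Of the genes that load, release and maintain cohesin, 4 of 6 were lower with the block (25.0% of all genes) and 2 of 6, PDS5A and PDS5B, with the block and the GC offset (13.5%). PDS5A, a regulator bound to the ring, was at 29.9, 12.5 and 15.7 TPM after knockdown and at 57.2, 38.8 and 42.3 TPM in control cells, with a log2 fold change of -1.28 (adjusted p = 0.0843 in limma, and 0.00481 with the block). Its paralog PDS5B was at -0.85 (adjusted p = 0.104, and 0.0069 with the block in limma), and at -0.41 with the GC offset as well. The loader NIPBL was at 4.60, 1.91 and 3.12 TPM after knockdown and at 7.20, 5.75 and 5.63 TPM in control cells, a log2 fold change of -0.82 (adjusted p = 0.114 in limma, and 0.0143 with the block), and of -0.41 with the block and the GC offset (adjusted p = 0.0525). These 3 of the 6 genes had groups that did not overlap, against 22.3% of all genes that were lower without overlap.

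In the acetylation cycle, ESCO1 and ESCO2 acetylate SMC3 and HDAC8 removes the acetyl group. All 3 were lower with the block (25.0% of all genes) and 0 with the block and the GC offset (13.5%). The transcripts have 36.1%, 38.4% and 40.8% GC, in the lowest GC class, where the block called 58.4% of genes lower. In limma-voom with the block HDAC8 did not pass (adjusted p = 0.0809). The log2 fold changes of ESCO1, ESCO2 and HDAC8 were -0.66, -0.59 and -0.26. Of the genes of cleavage and protection, the shugoshins SGO1 and SGO2 had log2 fold changes of -0.76 and -0.65. With the block 3 of the 4 genes were lower, PTTG1, SGO1 and SGO2, against 25.0% of all genes. With the GC offset as well, SGO1 was at -0.37 (limma adjusted p = 0.0246) and SGO2 at -0.21 (0.165), no longer past the threshold. The count stayed at 3 of the 4 genes, against 13.5%, since ESPL1 then passed with PTTG1 and SGO1. ESPL1 encodes separase and is named here after its values were seen. It was at -0.32 (limma adjusted p = 0.042), and at -0.24 (0.0957) with the block alone. CTCF, which stops loop extrusion by cohesin at its sites, had a log2 fold change of -0.25 (adjusted p = 0.243 in limma, and 0.0296 with the block). With the block it did not pass after the GC offset (-0.11, adjusted p = 0.2) or in limma-voom (adjusted p = 0.0836). In the SMC5/6 complex, the SMC complex active in DNA repair, SMC5 and SMC6 had log2 fold changes of -0.88 and -0.75 and NSMCE4A one of -0.33. These 3 of 7 genes were lower with the block, against 25.0% of all genes. With the GC offset as well SMC5 and NSMCE4A were lower, against 13.5%, and SMC6 was at -0.32 (limma adjusted p = 0.0809).

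Of the 8 mitotic chromosome partners and condensin regulators, 6 were lower with the block (25.0% of all genes), and 6 with the block and the GC offset (13.5%). These were not the same 6. CDK1 passed with the block (limma adjusted p = 0.00444) and not with the GC offset as well (0.182). AURKB passed only with both (limma adjusted p = 0.0276, and 0.0522 with the block alone). TOP2A, the topoisomerase that acts with condensin on mitotic chromosomes and the gene on which the study centred, was at 54.6, 21.1 and 24.4 TPM after knockdown and at 116.4, 69.5 and 75.9 TPM in control cells, with a log2 fold change of -1.45 (adjusted p = 0.0892 in limma, and 0.00436 with the block), beyond that of every member. With the block and the GC offset TOP2A was at -1.04 (limma adjusted p = 0.00326). The study used a different test, DESeq2, counted TOP2A among its most downregulated mRNAs and found it lower by qPCR. MKI67, which coats mitotic chromosomes, had a log2 fold change of -1.07 (limma adjusted p = 0.00436 with the block). TOP2B, the topoisomerase II of non-dividing as well as dividing cells, had one of -0.80 (0.00586). The median log2 fold change of the 33 pathway genes was -0.56, and 30 of them were negative, beside a median of -0.08 over all genes.

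**Figure D5:**
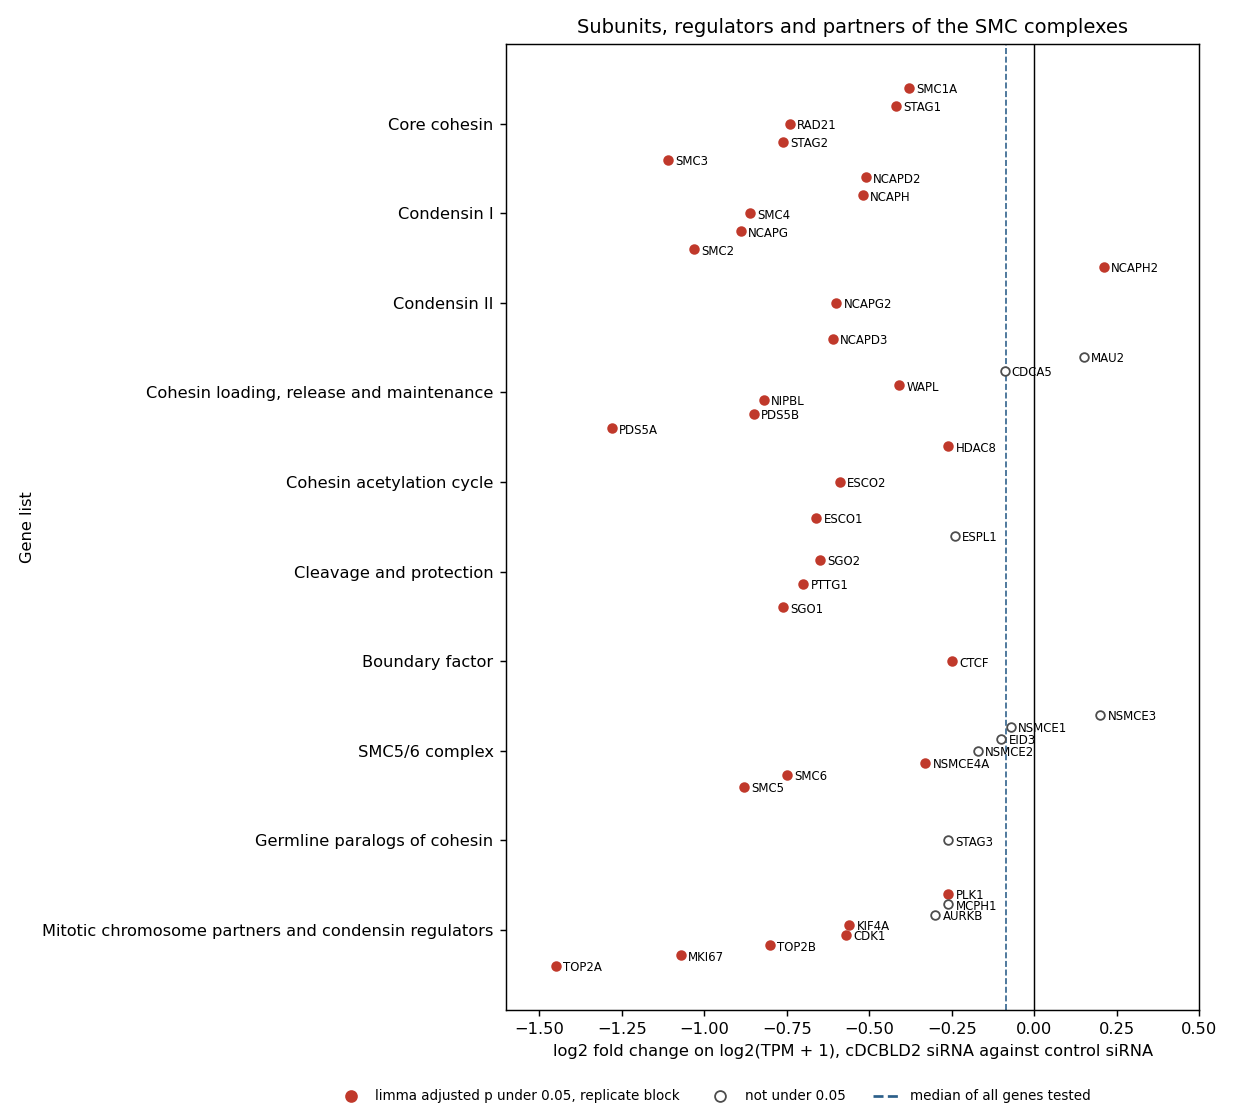
Log2 fold change on log2(TPM + 1) of each tested subunit, regulator and partner, by list. Filled red points had a limma adjusted p under 0.05 with the replicate block, open points did not, and the dashed line is the median of all genes tested. All 10 members and 22 other genes are filled on the left of 0, and NCAPH2 is the filled point on the right.

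Exons of several members overlap those of other genes on the opposite strand in GENCODE release 29, and the strand setting of the authors' counting is not given in the sources used here. NCAPD2 shares 382 bases with MRPL51, which was at 300.1 to 382 TPM and had a log2 fold change of -0.20. STAG1 shares 1664 bases with PCCB (115 to 163 TPM, -0.20), SMC4 shares 1561 bases with TRIM59 (2.91 to 11.3 TPM, -0.67), NCAPG shares 1631 bases with LCORL (0.604 to 2.19 TPM, -0.52) and RAD21 shares 518 bases with UTP23 (40.9 to 70.9 TPM, -0.40). SMC4, NCAPD2 and NCAPG also have named pseudogenes. The part of these neighbours in the members' values was not tested.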

How the data were processed

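PolyA-Seq libraries of HCCLM3-SR cells (3 with cDCBLD2 siRNA, 3 with control siRNA) were grouped by the sample labels. The authors deposited 1 table of TPM per gene. The submitters' processing notes name fastp 0.20.1, HISAT2 2.1.0, StringTie 2.0 and hg38, and the annotation, strand and multimapping settings are not given in the sources used here. The 10 members, the pathway lists and the cell type markers were chosen with earlier results of these data known.

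A gene entered the test when its mean over the 6 libraries reached 1 TPM. Values of log2(TPM + 1) were fitted in limma 3.58.1 (R 4.3.3, trended prior variance), and p-values were adjusted by Benjamini and Hochberg over all 13980 genes. The fit was tested on simulated data. Single genes were also compared by exact permutation tests. The pairing comes from the replicate numbers in the labels, which do not say what a number stands for. Deviations of same-numbered libraries from their group means correlated at 0.56, 0.343 and 0.362 across genes (above 0.1 in each pair), so the blocked values stand beside the others. Unlike numbers also correlated between replicates 2 and 3, at 0.247 (knockdown 3 with control 2) and 0.215 (knockdown 2 with control 3), so that the numbers separate replicate 1 from the rest more than 2 from 3. Whole reads were recovered from the ratios of a gene's TPM values for 99.99% of the 17285 genes above 0 in all libraries (tolerance 0.02 reads). They are lower bounds, and cover counting error only.

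GC content and length came from 1 GENCODE release 29 transcript per gene, found for 92.5% of the genes tested, and their trends were removed per library by loess (span 0.5). Sequences came from GENCODE transcripts and RefSeq tables. Alternatives were the replicate block, GC and length offsets, upper-quartile scaling, a pseudocount of 0.1, no filter, a mean of at least 5 TPM, limma-voom on recovered reads and each library left out. Named with values were all members, all condensin II genes, pathway genes past the threshold, up to 3 per list with the largest fold change, TOP2A and DCBLD2. Genes overlapping a member were added after seeing the data. Python 3.11.15, numpy 2.4.6, pandas 2.3.3, numba 0.67.0 and matplotlib 3.10.9 were used.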

Additional observations from a re-analysis of the deposited data

How the results depend on the processing

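Over 19 alternatives, all 190 log2 fold changes of the 10 members were negative, but their size and the calls did not hold. The median of the cohesin subunits, -0.74, ranged from -0.96 to -0.44 with 1 library left out (-0.44 without knockdown replicate 2), and that of the condensin I subunits, -0.86, from -1.27 to -0.53 (-0.53 without control replicate 1). The GC offset brought them to -0.32 and -0.48. Without the block limma called 0 members lower, 0 lower past both thresholds, and 1 of the 33 pathway genes lower and 0 higher. The replicate block gave 10, 2, 22 and 1, the block with the GC offset 9, 0, 15 and 1, and limma-voom on recovered reads with the block, chosen after seeing the data, 10, 2, 21 and 2. That limma-voom fit called 3080 of its 15016 genes lower and 2627 higher. The GC offset alone gave 0 pathway genes lower, as did no filter on low values. With a mean of at least 5 TPM 1 member, NCAPD2, was called, in a fit that called 238 of 10245 genes lower. With the block and without both replicate 1 libraries the counts were 10, 3, 22 and 1, without both replicate 2 libraries 9, 0, 13 and 0, and without both replicate 3 libraries 3, 1, 10 and 0. Across the 6 fits that left out 1 library without a block, 0 to 8 members were lower, 0 to 5 past both thresholds and 0 to 17 pathway genes. The 8, the 5 and the 17 came from leaving out knockdown replicate 1, where SMC1A and STAG1 were not called. That fit called 2771 of all 13980 genes lower. The other 5 fits called 0 members, and 0 of all genes lower or higher. In these 5 fits 2 to 4 members had an unadjusted p under 0.05 in limma. The share of all genes at that p was not counted for these fits, so no background stands beside it. The cause of these shifts was not tested. SMC1A ranged from -0.53 to -0.05, the latter with the length offset, and STAG1 from -0.74 to -0.03. The 3 libraries per group set the precision, since a two-sided exact permutation test cannot go below 0.1.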
